A study of Mus musculus with 40 samples.

Results

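The genes described here encode the structural core of focal adhesions and of the actin cytoskeleton. They are 39 genes chosen by name, of 21347 genes kept from the deposited table. They comprise 3 actins, 10 proteins that link integrins to actin, 7 adhesion signalling proteins, 3 proteins of stress fibres and the adhesion plaque, 3 regulators of actin turnover, 8 proteins of the contractile filament and the 5 genes Rhoa, Rhob, Rhoc, Rac1 and Cdc42. All 39 were found in the table, and 37 reached the level needed for a test, which was 1 read per mega-read of scaled library size (called per M below) in at least 3 libraries. The other two, Myl9 and Tagln, are given as levels only.

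Focal adhesions are the sites where integrins, receptors for matrix proteins such as collagen, fibronectin and vitronectin, hold a cell to its substrate. Inside the cell, talin and kindlin bind the integrin tail, vinculin, zyxin and alpha-actinin couple it to actin bundles, and the kinases FAK and Src signal from it. Actin bundles held by tropomyosin and pulled by myosin put the adhesion under tension, and the level of free actin feeds back on many of these genes through the transcription factor SRF and its cofactor MRTF.

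The study cultured 4T1 cells, a mouse mammary carcinoma line that came from a BALB/c tumour, on different substrates and asked how the matrix bears on killing by T cells. The carcinoma cells were used within few passages of purchase and were seeded at 10000 per cm2. Their wells were of tissue culture polystyrene, left uncoated or covered with vitronectin, fibronectin, collagen I or collagen IV at 250 µg/ml. After a night, T cells from spleens of C57Bl6 mice were added at 80000 per cm2 with interleukin 2 at 30 U/mL, while the paired well received the interleukin alone, and both were kept for 24 h. Floating cells were spun down and pooled with the trypsinised ones, so a co-culture library is a mixture of RNA from carcinoma cells and T cells. There are 40 libraries in 10 groups. For 4T1 alone there are 5 libraries each on uncoated plastic and fibronectin and 4 on each of the other coats. For co-cultures there are 4 each on uncoated plastic, collagen IV and fibronectin and 3 each on collagen I and vitronectin. They came from 5 experiments. Experiment 1 lacks both collagens and vitronectin, and experiment 3 has a co-culture on collagen IV alone. In such bulk RNA, fewer cells of a type and less RNA per cell cannot be told apart.

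Several features of the libraries bear on every result below. Depth was 18.95 to 47.73 mega-reads except for 239.13 in the collagen IV co-culture of experiment 5. The 5 co-cultures of experiment 4 stood apart by their T cell RNA. Summed over 25 T cell genes, the level was 1450 to 4393 per M in those 5, 26.97 to 416 in the other 13 co-cultures and 2.85 to 6.30 in 4T1 alone. The 21 carcinoma epithelial genes measured summed to 2170 to 3280 per M in experiment 4, 3211 to 4758 in the other co-cultures and 3510 to 4987 in 4T1 alone. Their defining keratins were thus present in all libraries, and the defining T cell genes were near 0 without T cells. Of the B cell list, Igkc was at 0 in all 22 libraries of 4T1 alone, and the list summed to 48.0 to 146 per M in experiment 4 against 1.10 to 15.6 in the other co-cultures.

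In 4T1 alone the members spanned the full range from housekeeping transcripts to genes at the edge of detection. Levels between genes are compared per M and per kb of exon. The cytoplasmic actins stood at the top. Actg1 had 1227, 1290 and 1595 per M per kb as its lowest, median and highest level over 22 libraries, and Actb had 1152, 1260 and 1584. Their ranges overlap almost fully, and because their coding sequences are near-identical, reads may have been split between them. Cfl1, which encodes cofilin, the severing factor of actin filaments, followed with a median of 520 per M per kb. Pfn1, for the monomer-binding protein profilin, had 369, the tropomyosin gene Tpm4 had 300.4 and the transgelin gene Tagln2 had 294.

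Rhoc had a median of 173 per M per kb. Cdc42 had 113, Rac1 74.9, Rhoa 47.2 and Rhob 39.3. The first 4 in that order did not overlap with their neighbours over the 22 libraries, while the range of Rhob, 19.5 to 75.6, enclosed that of Rhoa. Among tropomyosins, which wrap the actin filament, Tpm1 had 150.0 per M per kb and Tpm2 0.58. The integrin linkers ran from Flna (filamin A, a crosslinker of actin filaments) at 167 through Actn4 (alpha-actinin-4) at 108.5, Actn1 at 95.0 and Tln1 (talin-1) at 53.2 to Tns1 (tensin-1) at 0.22. The non-epithelial forms were the low ones. Acta2, the smooth muscle actin, had a median of 0.72 per M per kb, the myosin light chain Myl9 0.10 and Tagln, the smooth muscle transgelin, 0.06. In per M these were 0.35 to 5.30, 0 to 0.305 and 0.048 to 0.296 over 4T1 alone, where 3 reads correspond to 0.0124 to 0.158 per M depending on the library.

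**Figure D1:**
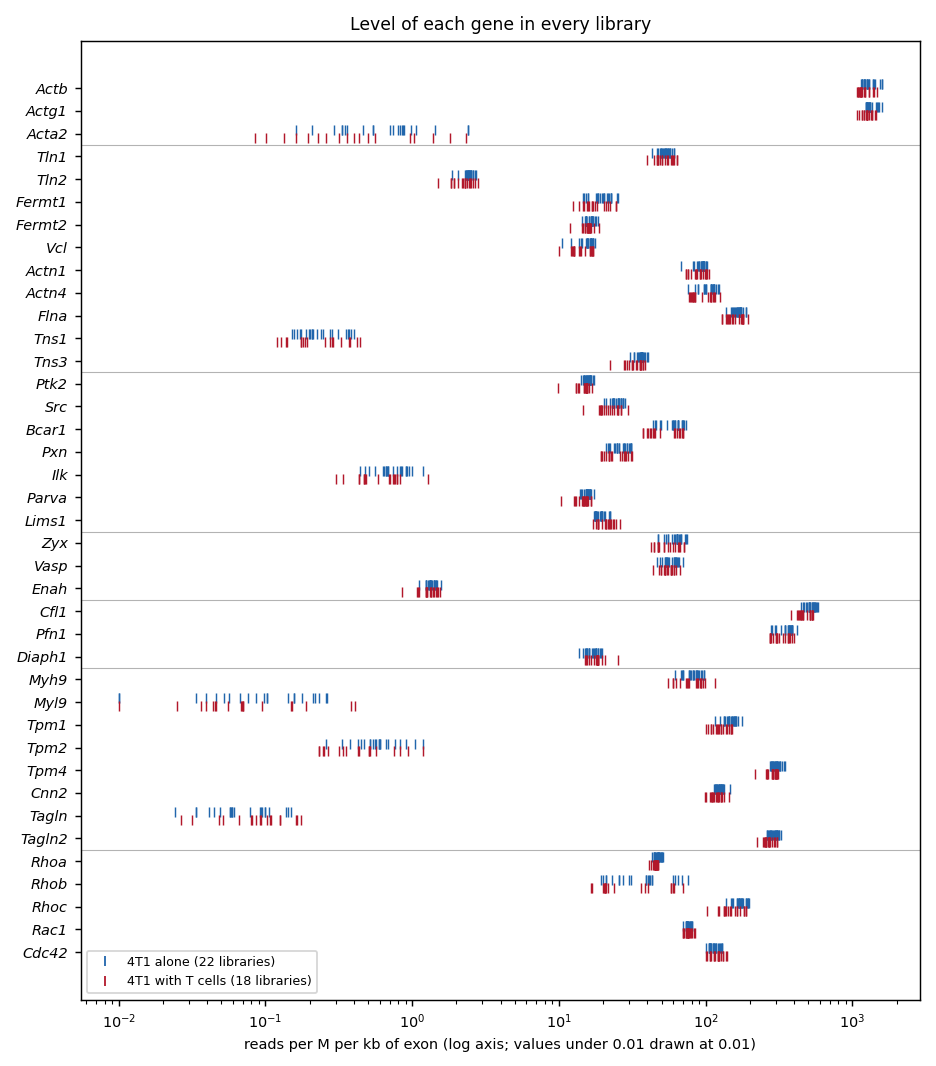
Levels of the 39 genes in each library, in reads per mega-read and per kb of exon on a log axis, with the genes grouped by role. Blue ticks are the 22 libraries of 4T1 alone and red ticks the 18 co-cultures, and values under 0.01 are drawn at 0.01. The actins lie above 1000 and Acta2, Tns1, Myl9 and Tagln near or below 1.

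Some of these levels cannot be assigned to the gene with certainty. In GENCODE M21, 89.7% of the exon bases of Ilk, the integrin-linked kinase gene, lie in Taf10 as well, and 51.4% of those of Rac1 lie in Daglb. The share was 67.9% for Tagln, mostly with the antisense gene Gm48529, 25.5% for Vcl, shared with Ap3m1, and 16.5% for Cfl1, shared with Snx32. How the counting treated overlaps and strand is not given in the sources used here.

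Promoter sequence was read for the members because SRF, the factor named above, binds a short element called the CArG box. RefSeq start sites on GRCm38.p6 matched 31 of the 39 members, and windows ran from 250 bases before the start to 50 after it. Only exact matches to CCWWWWWWGG, where W is A or T, were counted. A box with a mismatch would be missed, and members without a matched start site were not searched. Such an exact CArG box was found in 5 of the 31, which is 16.1%, and in 1.81% of the 27025 genes with such windows. The element is written in capitals within its flanks, 5′ to 3′ on the strand of the gene. The windows are Actg1 at chr11:120348551-120348610 (minus strand), Vcl (vinculin) at chr14:20929148-20929205 (plus), Fermt2 (kindlin-2) at chr14:45530235-45530294 (minus), Myl9 at chr2:156775278-156775337 (plus) and Cnn2 (calponin-2) at chr10:79988519-79988578 (plus).
Actg1: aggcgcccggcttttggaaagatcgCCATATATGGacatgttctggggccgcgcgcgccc
Vcl: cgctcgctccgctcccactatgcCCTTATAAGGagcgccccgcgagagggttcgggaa
Fermt2: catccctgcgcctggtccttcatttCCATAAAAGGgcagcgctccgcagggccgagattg
Myl9: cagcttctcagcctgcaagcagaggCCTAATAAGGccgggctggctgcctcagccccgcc
Cnn2: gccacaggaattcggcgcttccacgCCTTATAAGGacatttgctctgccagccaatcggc
The boxes began 90, 227, 204, 161 and 56 bases before the start. The 5 carriers are not alike in level. By median level per kb, Actg1 had rank 1 of the 39 genes, Cnn2 rank 10 and Myl9 rank 38.

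The motif GGAATG, which TEAD factors of the YAP pathway bind, was searched on both strands and overlapped no CArG box. It was in 7 of the 31 matched members (22.6%) and in 16.6% of all genes with windows. Its carriers were Acta2, Actn4, Vcl, Flna, Pfn1, Tpm1 and Tagln2, the last with 2 matches. The Tpm1 window is shown because Tpm1 had the smallest p of the members in the T cell comparison below. It lies at chr9:67049239-67049294 on the minus strand, with the motif in capitals starting 56 bases before the start.
Tpm1: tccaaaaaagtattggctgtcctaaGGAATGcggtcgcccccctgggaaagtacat
The reference is C57BL/6J while 4T1 cells are BALB/c, and a match of letters is a description of the window, not a binding site.

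The experiment was the main source of spread in 4T1 alone. Over the 37 tested members, a median of 62.9% of the variance of log2(value + 1) lay between experiments, against 47.8% over all 14701 genes tested. Substrate added a median of 14.2% once the experiment was taken out, against 15.8% for all genes. The share between experiments was highest for Rhob (97.8%), Bcar1 (91.7%), which encodes the adhesion scaffold p130Cas, and Myh9 (90.5%), the heavy chain of non-muscle myosin IIA. Substrate added most for Fermt2 (62.7%), Tpm1 (44.9%), Cnn2 (43.0%), Rhoa (39.8%), Tns3 (36.7%) and Vasp (36.0%), which encodes a promoter of filament elongation.

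Rhob separated the experiments. In 4T1 alone it measured 141 to 177 per M over the 5 libraries of experiment 2. It measured 92.6 and 97.0 in experiment 1 and 92.0 to 102 in experiment 3. Experiment 4 had 60.2 to 72.5 and experiment 5 had 45.7 to 53.6. Only experiments 1 and 3 overlapped, and the others stayed apart on all substrates. Experiment 5 was the lowest of the 5 for 26 of 37 members, against 32.7% of all genes, and experiment 2 the highest for 19, against 23.0%. As a description over the 22 libraries, which share experiments, Rhob and Rhoc had a Pearson correlation of 0.80, Actn1 and Actn4 of 0.78, Zyx and Tpm1 of 0.64, Actb and Actg1 of 0.54 and Fermt1 and Fermt2 of -0.22.

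**Figure D2:**
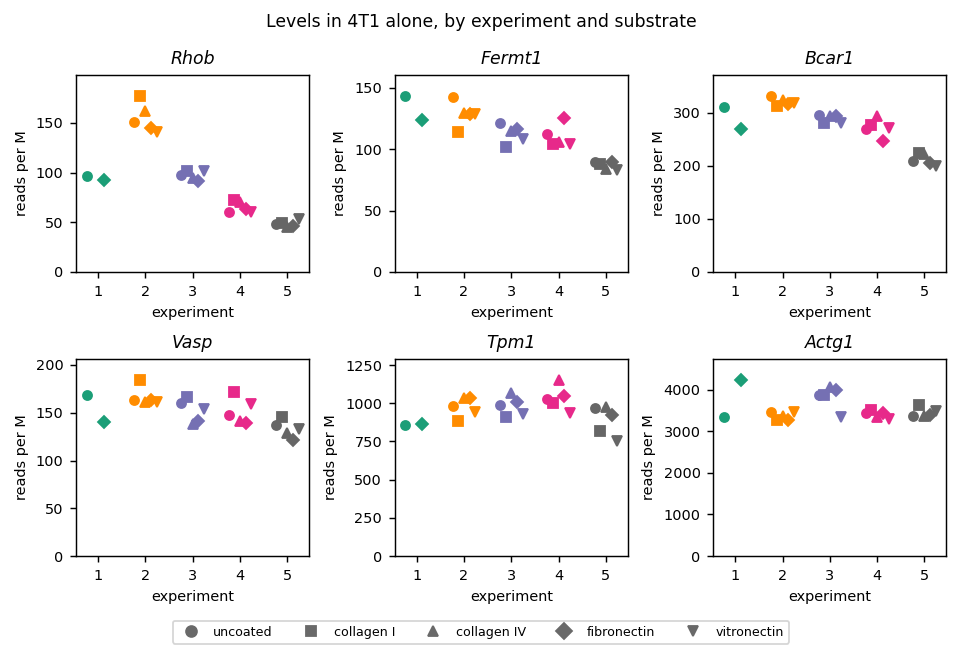
Levels per M of Rhob, Fermt1, Bcar1, Vasp, Tpm1 and Actg1 in each library of 4T1 alone, by experiment on the horizontal axis and in colour, with a marker shape for each substrate. Rhob lies at 141 to 177 in experiment 2 and at 45.7 to 53.6 in experiment 5, while the collagen I points of Vasp lie above those of collagen IV in experiments 2 to 5.

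Adding T cells was compared with 4T1 alone as the mean over the 5 substrates. The test was limma on log2(value + 1), with p-values adjusted by Benjamini-Hochberg over all 14701 genes. Of the 37 members, 9 were lower in co-culture and 0 higher. Over all genes, 12.2% were called lower and 13.1% higher. The median difference of the members was -0.11 on the log2 scale, against -0.01 for all genes, and 33 of the 37 lay below 0. The 9 were Tpm1, Tagln2, Cfl1, Rhoc, Rhoa, Tns3, Src, Tpm4 and Cnn2, and they fell by 4.16% to 15.6%. The ranges of the 2 arms overlapped for each of the 9. When 1 library was left out at a time, the count ran from 2 to 18. It was 2 without the vitronectin co-culture of experiment 4, 3 without that on uncoated plastic or on collagen I of experiment 4, and 5 without any one of 6 others (the fibronectin co-cultures of experiments 4 and 5, the vitronectin co-culture of experiment 5, and 4T1 alone on uncoated plastic of experiment 1 and on vitronectin of experiments 2 and 4). It was 14 without the collagen I or the collagen IV co-culture of experiment 2 and 18 without the vitronectin co-culture of experiment 2. Tpm1 and Tagln2 passed in all 40 of these fits, Cfl1 in 39, Rhoa and Rhoc in 37, Tns3 in 28, Src in 17, Tpm4 in 16 and Cnn2 in 9.

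The contractile filament held 4 of the 9 among its 6 tested members. Tpm1 lies on chromosome 9, from 67022590 to 67049406 on GRCm38. It had a lowest, median and highest level of 756, 973 and 1154 per M in 4T1 alone (n = 22), and 651, 809 and 975 in co-culture (n = 18). It fell by 0.24 ± 0.05 (SE) on the log2 scale (limma adjusted p = 0.00231) and was lower in 18 of 18 pairs of wells from the same experiment and substrate, as were 0.510% of all genes. Tagln2, an actin-bundling calponin relative on chromosome 1 (172500047 to 172507380), had 542, 613 and 678 per M alone and 465, 555 and 637 in co-culture. It fell by 0.12 ± 0.03 (limma adjusted p = 0.0169) and was lower in 15 of 18 pairs. Tpm4 fell by 0.10 ± 0.04 (limma adjusted p = 0.0496) from a median of 662 to 636 per M, and Cnn2 by 0.08 ± 0.03 (limma adjusted p = 0.0498) from 305 to 291. Both sit at the threshold, and Cnn2, whose window carries a CArG box, was lower in 14 of 18 pairs. Of the other tropomyosin, Tpm2, the difference was -0.22 (limma adjusted p = 0.162), and that of Myh9 was -0.04 (0.695).

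Rhoc, which drives actomyosin tension and is linked to invasion in carcinoma, had 222, 280 and 321 per M in 4T1 alone and 165, 238 and 306 in co-culture. It fell by 0.20 ± 0.07 (limma adjusted p = 0.0264) and was lower in 17 of 18 pairs. Rhoa, the main activator of stress fibres, had 324, 354 and 386 per M alone and 309, 340 and 354 in co-culture, and fell by 0.06 ± 0.02 (limma adjusted p = 0.0265). Rac1 and Cdc42, which act in lamellipodia and filopodia, differed by 0.01 and 0.06 and did not pass.

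Among regulators of actin turnover, Cfl1 fell by 0.14 ± 0.04 (limma adjusted p = 0.0239). Its levels were 1274, 1480 and 1649 per M alone and 1091, 1309 and 1536 in co-culture, and it was lower in 17 of 18 pairs. Tns3, for tensin-3, was the only integrin linker of 10 that passed, and it fell by 0.14 ± 0.05 (limma adjusted p = 0.0374) from a median of 404 to 378 per M. The other linkers with the largest differences were Actn4 at -0.15, Fermt1 (kindlin-1, the epithelial kindlin) at -0.13 and Vcl at -0.12. Src was the only one of 7 signalling members to pass. It fell by 0.17 ± 0.06 (limma adjusted p = 0.0414) from a median of 110 to 95.6 per M, while Ilk differed by -0.19, Bcar1 by -0.23 and Pxn, for the scaffold paxillin, by -0.12. No actin and no gene of the stress fibre and plaque group of Zyx, Vasp and Enah passed. The actin differences were -0.11 for Actb, -0.08 for Actg1 and -0.29 for Acta2, whose level is low.

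Replicate numbers stand for experiments here, and adding the experiment to the model as a block changed the count. With the block, 24 members were lower and 2 higher, against 23.4% and 22.4% of all genes. The 9 were among the 24. Those gained with the smallest p were Zyx (-0.18, limma adjusted p = 0.000212 with the block), Bcar1 (-0.20, 0.00136), Pfn1 (-0.13, 0.00220), Rhob (-0.19, 0.00412), Tpm2 (-0.21, 0.00750), Actn4 (-0.12, 0.00815), Acta2 (-0.30, 0.00879), Ilk (-0.18, 0.0101) and Pxn (-0.11, 0.0118). The 2 that rose were Lims1, which encodes the ILK partner PINCH-1, by 0.11 (0.00540), and Diaph1, a formin that elongates actin filaments, by 0.10 (0.0322). Lims1 had 85.2, 93.6 and 108.5 per M alone and 83.9, 101.7 and 127 in co-culture, so its ranges overlap too. Grouped by role, the block gave lower calls for 2 of 3 actins, 4 of 10 integrin linkers, 6 of 7 signalling members, 2 of 3 plaque and stress fibre members, 2 of 3 turnover members and 5 of 6 contractile members. In the count test edgeR on reads recovered from the table, 5 members were lower and 1 higher without the block (26.9% of all genes called) and 22 and 3 with it (44.6%).

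**Figure D3:**
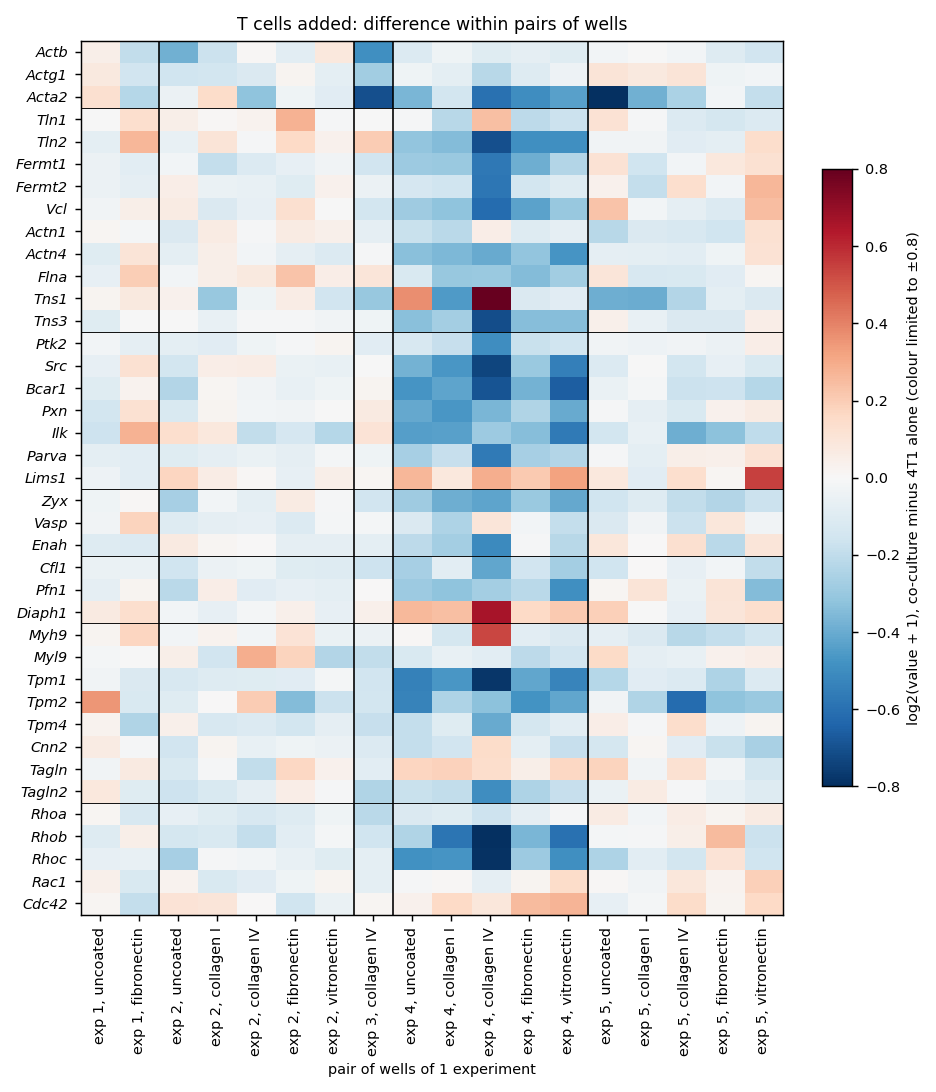
Heat map of the log2 difference, co-culture minus its own well of 4T1 alone, for the 39 genes (rows, by role) in the 18 pairs (columns, by experiment), with colours from -0.8 to 0.8. Blue marks lower in co-culture. The 5 pairs of experiment 4 are blue for most rows, with Lims1, Cdc42 and Diaph1 above 0 in all 5.

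Experiment 4 had the largest of these differences. The median over the members was -0.26 on average over its 5 pairs (-0.40 to -0.21). It was -0.02 over the 2 pairs of experiment 1, -0.05 over 5 pairs of experiment 2, -0.08 in the pair of experiment 3 and -0.04 over 5 pairs of experiment 5. In experiment 4, 27 of 37 members were lower in all 5 pairs and 3 were higher in all 5, against 29.4% and 29.9% of all genes. In experiment 2, 9 were lower in all 5 pairs and 0 higher, against 11.5% and 9.37% of all genes. Experiment 5 had 10 and 0, against 8.96% and 10.9%. With the 10 libraries of experiment 4 left out, 0 members passed by limma, against 2.92% of all genes called. At an unadjusted p under 0.05 the members numbered 3. Counts at that threshold, here and below, are given without the share of all genes and are no result about the members. With experiment 4 left out and the block kept, 4 were lower and 0 higher, against 10.4% of all genes called. The 4 were Tpm1 (-0.12, limma adjusted p = 0.0146), Zyx (-0.10, 0.0234), Cfl1 (-0.09, 0.0255) and Rhoc (-0.09, 0.0380). The labels also carry a library tag of unstated meaning. In experiment 4 it is R3 on each library of 4T1 alone and absent or R2 on the co-cultures. It also differs between the arms in the pair of experiment 3 and on each coat in experiments 2 and 5. In all those pairs the tag and the T cells cannot be told apart.

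Tpm1 in the 5 libraries of 4T1 alone of experiment 4 had 1027 (uncoated plastic), 1005 (collagen I), 1154 (collagen IV), 1047 (fibronectin) and 940 (vitronectin) per M. The co-cultures had 707, 728, 672, 784 and 651 in the same order. These ranges did not overlap, and the mean difference was -0.55 ± 0.14 (SD, n = 5) on the log2 scale. In experiment 5 the Tpm1 differences were -0.23, -0.09, -0.11, -0.25 and -0.11, and in experiment 2 they were -0.13, -0.11, -0.10, -0.09 and -0.02, in the same order of substrates. The 2 pairs of experiment 1 had -0.03 and -0.12 and the pair of experiment 3 had -0.15.

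The other large differences of experiment 4 were those of Bcar1 (-0.52 ± 0.14, SD, n = 5), Rhob (-0.52 ± 0.23), Rhoc (-0.51 ± 0.18) and Src (-0.49 ± 0.17). Those of Actb (-0.08 ± 0.03), Actg1 (-0.10 ± 0.08) and Rhoa (-0.09 ± 0.06) were small. Diaph1 differed by 0.31 ± 0.20, Lims1 by 0.23 ± 0.09 and Cdc42 by 0.16 ± 0.10. The collagen IV co-culture of experiment 4 was the most extreme of the 5. There Myh9 had 1494 per M against 1029 alone, a difference of 0.54, while in the other 4 pairs of that experiment Myh9 differed by -0.14 to 0.01. Diaph1 had 161 per M in that co-culture against 102 alone.

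T cell RNA and epithelial RNA also differed most in experiment 4, while the order of the other experiments was not the same. In experiment 4 the mean log2 level of the 25 T cell genes was 5.71 higher in co-culture, and that of the 21 epithelial genes differed by -0.46 (-0.76 to -0.35 over the 5 pairs). The epithelial difference was -0.08 in experiment 1, -0.11 in experiment 2, -0.11 in experiment 3 and -0.003 in experiment 5. The T cell difference of experiment 1, 3.45, was the second largest, and there the median over the members was -0.02. That of experiment 3, 0.89, was the smallest, with a median of -0.08. By limma all 25 T cell genes rose, as did Ighm, Igkc and Cd79b of 3 B cell genes and Lyz2 of 4 macrophage genes tested. Itga2b of 5 erythroid and platelet genes tested rose too, as did Pecam1 of 3 genes tested on the stromal and smooth muscle list. On that last list Col1a1 (-0.17) and Pdgfra (0.05) were not called. In 4T1 alone, 2 of the 25 T cell genes and 0 of the 8 B cell genes reached 1 per M, and Lyz2 and Pecam1 stayed below it. Genes below 1 per M there passed the filter only through the co-cultures, so their rise was set in advance and is no test. By limma 5 of the 21 epithelial genes tested were lower with T cells, against 12.2% of all genes. They were Krt7, Krt8, Krt18, Krt19 and Spint2, with differences of -0.26 to -0.19. Against the epithelial mean, 31 of the 37 members were less reduced in experiment 4, and 22 were so in all 5 pairs. The share of all genes was not counted. The median of all genes there was -0.004 on average (-0.018 to 0.006), also above the epithelial mean, against -0.26 for the members. The 31 and 22 therefore do not set the members apart from other genes. Tpm1 was the only member further reduced than the epithelial mean in all 5 pairs, with a difference from it of -0.08 ± 0.08 (SD). With all libraries rescaled to the mean of the epithelial genes, the median of all genes moved to 0.16 and that of the members to 0.08. Then 0 members were lower and 1 higher (Diaph1, 0.28, limma adjusted p = 0.0397), against 14.4% of all genes called. With the block on that scale, an alternative added after seeing the data, 12 members were higher and 1 lower (Acta2, -0.22, limma adjusted p = 0.0496), against 60.4% of all genes called. The 12 were Lims1, Cdc42, Rac1, Diaph1, Fermt2, Flna, Ptk2, Parva, Rhoa, Tln1, Actg1 and Tpm4. Among them Rhoa (0.12, limma adjusted p = 0.0198) and Tpm4 (0.10, 0.0337) were called in the direction opposite to that without the rescaling. On the epithelial scale without the block, Rhoa, Tpm4, Tagln2, Cnn2, Cfl1, Tns3, Src and Actb were above 0, while Tpm1 (-0.06), Rhoc (-0.02), Rhob (-0.05) and Tpm2 (-0.12) stayed below 0 without passing. The part of the cell mixture in these differences was not tested.

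**Figure D4:**
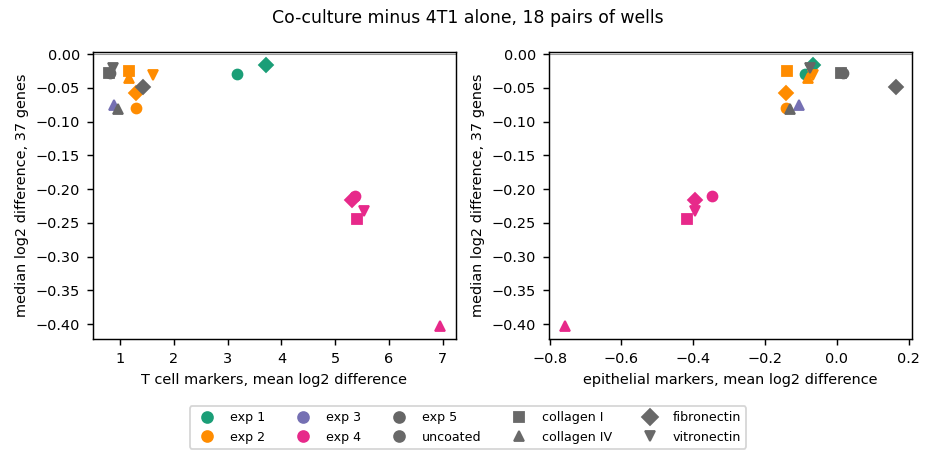
Each of the 18 pairs as a point, with the median log2 difference over the 37 members on the vertical axis. The horizontal axis is the mean log2 difference of the 25 T cell genes in the left panel and of the 21 epithelial genes in the right panel, with a colour for each experiment and a marker shape for each substrate. The 5 pairs of experiment 4 lie at medians of -0.40 to -0.21, while the 2 pairs of experiment 1, with T cell differences of 3.17 and 3.72, lie at -0.03 and -0.02.

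Most forms of this machinery that are typical of blood cells rose. Of 23 such genes tested, 20 rose and 0 fell by limma, with a median difference of 2.00. Over all genes, 13.1% were called higher and 12.2% lower. These genes are typical of the cells that were added, and most passed the filter only through the co-cultures. Their rise was therefore set in advance and is no test of the machinery of the carcinoma cells. Dock2, an activator of Rac in lymphocytes, rose by 3.81 ± 0.53 (limma adjusted p = 9.34e-05). Coro1a, the leukocyte coronin, rose by 3.52 ± 0.54, Itga4 by 3.27 ± 0.56 and Itgal by 2.82 ± 0.50, and Rac2, the Rac of blood cells, rose as well. Rac2 averaged 0.01 per M in 4T1 alone, 106 in the co-cultures of experiment 4 and 5.03 in the others. The leukocyte kindlin Fermt3 and the leukocyte parvin Parvg, named here after their values were seen because they are relatives of Fermt1, Fermt2 and Parva, averaged 32.2 and 13.6 per M in experiment 4 and 0.50 and 0.05 in 4T1 alone. Of the 23, 8 reached 1 per M in 4T1 alone, among them Lcp1 (L-plastin), which averaged 143 there, 227 in experiment 4 and 142 in the other co-cultures.

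The rest of the pathway showed a mixture. The counts below stand against 12.2% of all genes called lower and 13.1% called higher by limma, and no list was tested as a set. Of 19 matrix integrin genes tested, Itga4 and Itgb7, which are also on the leukocyte list, rose, and the fibronectin receptor chain Itga5 fell by 0.15 ± 0.04 (limma adjusted p = 0.0106). Of 43 further adhesion plaque genes, 8 fell and 3 rose. The smallest p were those of the LIM domain gene Fhl3, which fell by 0.19 ± 0.03 (0.000413), and of Evl, which rose by 2.68 ± 0.52 (0.00192). Evl, a haematopoietic relative of Vasp, is on the leukocyte list too. In 4T1 alone the highest levels of Itga4, Itgb7 and Evl were 0.20, 0.90 and 0.10 per M. They passed the filter only through the co-cultures, so the rise of Itga4, Itgb7 and Evl was set in advance and is no test. Lasp1 fell by 0.11, Ajuba by 0.19 and Kank2 by 0.13. Of 57 further actin regulators, 15 fell and 5 rose. The myosin light chains Myl6 (-0.18 ± 0.04, limma adjusted p = 0.00411) and Myl12a (-0.15 ± 0.04, 0.00924) and the Arp2/3 subunit Arpc1a (-0.10 ± 0.02, 0.00574) fell, while the formin Diaph2 (0.30 ± 0.07, 0.00476) and the myosin phosphatase subunit Ppp1r12a (0.17 ± 0.04, 0.00819) rose. Of 25 genes of the SRF and YAP pathways, 4 fell (Tead2 and Tead3 by 0.24 each, Ankrd1 by 0.16 and Ajuba by 0.19) and Lats2 rose by 0.13 (limma adjusted p = 0.0349).

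On single substrates, 0 members passed for T cells by limma, as did 0% of all genes. The counts of members with an unadjusted p under 0.05 were 5 on vitronectin, 3 on collagen IV, 1 each on uncoated plastic and fibronectin and 0 on collagen I. They have no share of all genes beside them. By edgeR without the block 0 members were called as well. By edgeR with the block Cfl1 was lower on uncoated plastic (-0.15, adjusted p = 0.0398) and on collagen IV (-0.15, 0.0461), and on vitronectin Pfn1 was lower (-0.29, 0.0108) and Lims1 higher (0.26, 0.0388), where 8.39%, 6.55% and 6.39% of all genes were called. A test of whether the T cell difference varied between substrates called 0 members and 0% of all genes by limma, 0 by limma with the block and 0 by edgeR, with 0 members at an unadjusted p under 0.05 in the first.

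Coats were then compared with uncoated plastic in 4T1 alone. By limma 0 of 37 members passed on any coat, where the shares of all genes called were 0.0952% for collagen I, 0.00680% for collagen IV and 0% for the other two. At an unadjusted p under 0.05 the counts were 1 for collagen I and 0 for the others, and edgeR called 0 on each. With the block the count of members called was still 0, with 7 (collagen I), 2 (collagen IV), 2 (fibronectin) and 1 (vitronectin) at an unadjusted p under 0.05. The unadjusted counts have no share of all genes beside them and are no result about the members. The median differences of the members were 0.05 (collagen I), 0.02 (collagen IV), -0.01 (fibronectin) and -0.04 (vitronectin). Rescaled to the epithelial genes, the median on collagen I was 0.18, against 0.13 for all genes. Differences within experiments are therefore given as values.

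On collagen I many members had the same sign in all experiments. Within experiments, 17 of 37 members were higher on collagen I in all 4 pairs, against 14.0% of all genes, and 4 were lower in all 4, against 11.4%. The 17 included 6 integrin linkers (Tln1, Tln2, Fermt2, Tns3, Flna and Actn4) and 4 signalling members, the FAK gene Ptk2 and the complex of Ilk, Lims1 and Parva (alpha-parvin), whose proteins bind each other. The rest were Vasp, Tpm2, Tpm4, Cnn2, Rhoa, Rhob and Rac1. The 4 lower were Acta2, Zyx, Fermt1 and Tpm1. In co-culture, with 3 pairs, 13 were higher in all and 4 lower in all, against 18.7% and 20.0% of all genes. These are not the same sets. Of the 13, Bcar1, Cfl1, Pfn1 and Tagln2 were not among the 17. The 4 lower in co-culture were Vcl, Fermt1, Tns1 and Enah, and only Fermt1 was lower in all pairs of 4T1 alone as well. No test was made of these counts. The library tag differed between both collagens and uncoated plastic in 4T1 alone of experiments 2, 3 and 5. For fibronectin it differed in experiments 2 and 5, and for vitronectin in experiment 2. In co-culture the tag differed from that of uncoated plastic on each coat in experiment 4, and on fibronectin and vitronectin in experiment 5. In all pairs where it differed, the tag and the coat cannot be told apart.

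Fewer members were higher in all pairs on the other coats. On collagen IV 6 were higher in all 4 pairs and 4 lower, against 10.1% and 9.87% of all genes. On fibronectin 2 were higher in all 5 pairs and 8 lower, against 8.41% and 7.79%. On vitronectin 0 were higher in all 4 pairs and 5 lower, against 6.92% and 7.66%. The 8 on fibronectin were Pxn, Src, Bcar1, Parva, Tns3, Cfl1, Pfn1 and Rhoc, of which Pxn, Src and Bcar1 are substrates or partners of FAK.

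**Figure D5:**
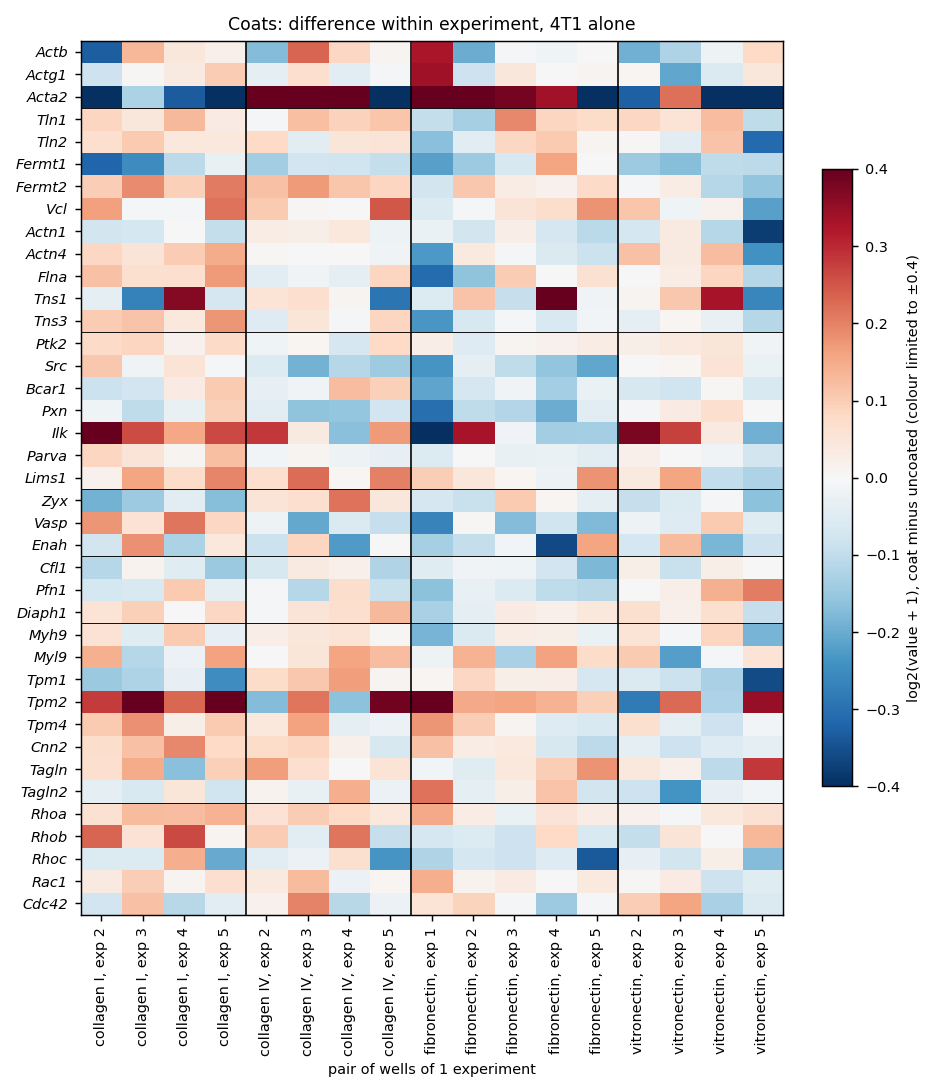
Heat map of the log2 difference, coat minus uncoated plastic of the same experiment in 4T1 alone, for the 39 genes (rows, by role) in 17 pairs (columns, by coat and experiment), with colours from -0.4 to 0.4. Red marks higher on the coat. Rows such as Fermt2, Tns3 and Rhoa are red in all 4 collagen I columns, and Zyx, Fermt1 and Tpm1 are blue there.

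Vasp had the smallest adjusted p of the members for a difference between substrates in the fit with the block. In 4T1 alone it had 185, 166, 171 and 145 per M on collagen I in experiments 2 to 5. It had 161, 139, 142 and 129 on collagen IV, and 164, 142, 140 and 121 on fibronectin in the same experiments. Collagen I was the highest of these in each experiment, although the ranges over experiments overlap. Collagen I exceeded collagen IV by 0.23 ± 0.05 (SE, limma with the block, adjusted p = 0.00712, and 0.990 without it) and fibronectin by 0.27 ± 0.05 (0.000818, and 1.00 without it). With the block Vasp was the only member called in these comparisons, where 2.04% and 1.60% of all genes were, and the only one in the test over all 5 substrates (adjusted p = 0.00403, 2.69% of all genes). Against uncoated plastic, with 168, 163, 160, 148 and 137 per M in experiments 1 to 5, the difference of collagen I was 0.13 and did not pass (limma with the block, adjusted p = 0.300).

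The 2 kindlins differed in sign on both collagens in 4T1 alone. Fermt1 had 144, 142, 121, 112 and 89.6 per M on uncoated plastic in experiments 1 to 5, and 114, 102, 104 and 87.7 on collagen I in experiments 2 to 5. The differences within experiments were -0.32, -0.25, -0.11 and -0.03, and in co-culture -0.49, -0.11 and -0.31 in experiments 2, 4 and 5. Fermt2 had 83.2, 79.7, 77.5, 86.1 and 82.9 per M on uncoated plastic and 85.4, 88.6, 92.0 and 95.9 on collagen I, with differences of 0.10, 0.19, 0.09 and 0.21. Neither passed in the fit to all libraries, with or without the block. In co-culture the Fermt2 differences on collagen I were -0.01, 0.07 and -0.02. On collagen IV in 4T1 alone, Fermt1 differed by -0.14, -0.08, -0.08 and -0.10 in experiments 2 to 5. Fermt2 differed there by 0.12, 0.17, 0.11 and 0.09. Fermt1 was lower on vitronectin too, by -0.15, -0.17, -0.10 and -0.10, where Fermt2 had both signs.

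Zyx, a sensor of tension at stress fibres, differed from uncoated plastic by -0.19, -0.15, -0.04 and -0.17 on collagen I in experiments 2 to 5 and by 0.05, 0.07, 0.22 and 0.05 on collagen IV. Tpm1 had the same pattern, with -0.15, -0.12, -0.03 and -0.25 on collagen I and 0.07, 0.11, 0.17 and 0.01 on collagen IV. Zyx differed between the 2 collagens by -0.23 (limma with the block, adjusted p = 0.0581) and Tpm1 by -0.23 (0.299).

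When 4T1 alone was fitted by itself (22 libraries, with the block), so that no spread came from the co-cultures, more members were called. The tag differences between substrates given above hold for these fits too. On collagen I against uncoated plastic it called 4 members of 37, against 3.14% of all genes. Rhoa was higher by 0.13 ± 0.03 (limma adjusted p = 0.0214) and Tpm2 by 0.42 ± 0.11 (0.0472), and Zyx (-0.14 ± 0.04, 0.0378) and Fermt1 (-0.20 ± 0.05, 0.0404) were lower. Src was lower on collagen IV (-0.14, limma adjusted p = 0.0479, 1.43% of all genes called) and on fibronectin (-0.15, 0.0352, 0.877%). Rhoa had 371, 386, 366 and 358 per M on collagen I in experiments 2 to 5 and 337, 355, 353, 335 and 324 on uncoated plastic in experiments 1 to 5, and these ranges do not overlap. Src had 111, 97.2, 107 and 92.1 per M on collagen IV in experiments 2 to 5, against 115, 111, 115 and 102 on uncoated plastic in the same experiments.

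Between coats, the fit to all libraries without the block called 0 members. The shares of all genes called there were 0.299% for collagen I against collagen IV, 0.211% against fibronectin, 0.0340% against vitronectin, 0.197% for collagen IV against vitronectin and 0% for the other 2 pairs, and 0.252% in the test over all 5 substrates. At an unadjusted p under 0.05, with no share of all genes beside them, the members numbered 2, 1, 2, 2, 0, 0 and 0 in that order. By edgeR 0 members were called. The fit to 4T1 alone called 4 members for collagen I against collagen IV, against 6.63% of all genes. They were Zyx and Tpm1, lower on collagen I with -0.23 each (limma adjusted p = 0.00107 and 0.00413), and Vasp and Src, higher by 0.23 (0.00221) and 0.16 (0.00819). Of collagen I against fibronectin it called 5, against 4.30% of all genes. Vasp was higher on collagen I by 0.25 (limma adjusted p = 0.000744), Src by 0.17 (0.00520), Tns3 by 0.16 (0.0197) and Parva by 0.10 (0.0391), and Tpm1 was lower (-0.15, 0.0492). Vitronectin differed from each of the other coats in some members. Fermt2 was higher on collagen I than on vitronectin by 0.21 ± 0.04 (limma adjusted p = 0.00837), as were Cnn2 (0.17, 0.0290) and Tns3 (0.15, 0.0492), with 2.47% of all genes called. Collagen IV exceeded vitronectin in Tpm1 (0.25, limma adjusted p = 0.00269), Fermt2 (0.18, 0.00959) and Zyx (0.17, 0.00823) and was lower in Src (-0.13, 0.0218), with 6.99% called. Fibronectin exceeded vitronectin in Tpm1 (0.17, limma adjusted p = 0.0357) and was lower in Src (-0.15, 0.0269), Pxn (-0.16, 0.0473) and Pfn1 (-0.18, 0.0489), with 3.03% called. Tpm1 thus was lower on collagen I and vitronectin than on collagen IV and fibronectin. In the test over all 5 substrates it called 7, namely Tpm1, Vasp, Src, Zyx, Fermt2, Pxn and Tns3, against 9.82% of all genes.

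In co-culture 0 members passed for any coat by limma, where 0.00680% of all genes were called on collagen I, 0.0136% on collagen IV and 0% on fibronectin and vitronectin, and 0.129% in the test over the 5 substrates. The counts at an unadjusted p under 0.05, with no share of all genes beside them, were 2, 0, 0 and 0 for the coats and 1 in the last test. By edgeR 0 members were called. In the test over the 5 substrates with the block, Cnn2 was the only member called (limma adjusted p = 0.0316, and 0.972 without the block), with 1.60% of all genes. Its co-cultures on collagen I had 314, 326 and 319 per M in experiments 2, 4 and 5, above the 264, 278 and 271 of uncoated plastic in the same experiments. The tag differences between the co-cultures given above hold for these comparisons, so in experiment 4 the tag and the coat cannot be told apart. With experiment 4 left out and the block kept, Fermt1 was lower on collagen I (-0.41 ± 0.07, limma adjusted p = 0.00159, 0.803% of all genes called), and it was lower there in 4T1 alone too (-0.23 ± 0.05, 0.0274, 1.74% called).

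The wider lists held 2 calls on collagen I by limma, where 0.0952% of all genes were called. Of 57 further actin regulators tested in 4T1 alone, Arpc5, a subunit of the Arp2/3 complex that branches actin, rose by 0.25 ± 0.05 (limma adjusted p = 0.0234). Of 25 SRF and YAP pathway genes, Vgll4, which competes with YAP for TEAD factors, rose by 0.59 ± 0.12 (0.0380). Of 19 matrix integrins and 43 further plaque genes, 0 passed.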

How the data were processed

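Bulk RNA sequencing of 40 libraries was analysed. The authors deposited 1 table of 21349 lines with an expression signal per gene and library, namely reads scaled to a library size of about 1 mega-read, with column sums of 956225 to 1037118. The tools named per the submitters' processing notes are STAR 2.6, featureCounts and edgeR 3.31.7, and the genome is mm10. The annotation and the treatment of overlaps and strand are not given in the sources used here. Of the lines, 1 symbol without any number was left out, the duplicated Cd3d was kept once, 19 symbols had turned into dates, and 0 value columns lacked a sample. Whole reads were recovered from the low values (100% of values whole within 0.01), which gave the depth of each library. A count of 3 reads corresponds to 0.0124 to 0.158 per M. Such floors cover counting error only, since the sources used here name no molecular identifiers.

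Genes with at least 1 per M in 3 or more libraries were tested (14701). limma 3.58.1 (trend) in R 4.3.3 was fitted to log2(value + 1) with a mean for each of 10 groups over all 40 libraries and no experiment term. The pseudocount of 1 understates changes of low genes. Adjusted p-values are Benjamini-Hochberg over all tested genes with a threshold of 0.05. Tables were made with Python 3.11.15, pandas 2.3.3 and numpy 2.4.6, and the fits were tested on simulated data. Alternatives were the experiment as a block, edgeR 4.0.16 (quasi-likelihood) on the recovered reads with and without it, a pseudocount of 0.1, no filter, quantile scaling, scaling to epithelial genes, leaving out experiment 4, 4T1 alone with the block, and leaving out each library. The block combined with leaving out experiment 4, with quantile scaling or with epithelial scaling was added after seeing the data.

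Replicate numbers are biological replicates per the labels. Deviations from group means correlated with a median of 0.478 (lowest 0.041) over 156 pairs of libraries with the same number and of -0.131 over 562 pairs with different numbers, and 37 of 40 libraries were closest to one of their own number. No 2 libraries of a group agreed within sampling noise (chi-square per degree of freedom 7.03 to 744.6 over 62 pairs).

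The members and lists were chosen with earlier results of these data known. Named genes were the members that passed, at most 10 gained with the block by smallest p, at most 3 others per role as values, and at most 5 per further list by smallest adjusted p. Actins, tropomyosins, Rhoa, Rhob, Rhoc, Rac1 and Cdc42 were described in any case. The other marker lists (B cell, macrophage, stromal, erythroid and platelet genes) served as checks of the cell mixture.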

Additional observations from a re-analysis of the deposited data

Results flagged for a closer look

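In each group of 4 or 5 libraries, the highest and the lowest level of 14 members was compared with the rest of its group, 115 groups in all, and 11 stood apart. Chance marks about 1 group in 20. In 4T1 alone on vitronectin, Actb measured 3714 per M in experiment 2 against 3208 to 3261 in the other experiments, and Cfl1 measured 1649 there against 1442 to 1460. On the same substrate, experiment 5 was low for Tpm1 (755.8 per M against 932.8 to 941.3) and for Tns3 (338.1 against 402.1 to 409.7). Actg1 was high in experiment 3, with 4053 per M on collagen IV against 3334 to 3359 and 3868 on uncoated plastic against 3349 to 3454. Experiment 5 was low for Zyx on fibronectin, with 279.8 per M against 344.6 to 365.7, and for Tagln2 on collagen I, with 542.2 against 612.4 to 623.9. Among co-cultures, Rhoa had 309.2 per M on uncoated plastic in experiment 4 against 338.5 to 340.6, and Tpm1 had 975.2 on fibronectin in experiment 2 against 778 to 796.9. Over the 5 pairs of experiment 4, the median difference of the members was -0.4026 on collagen IV against -0.2448 to -0.2101 on the other substrates.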

How the results depend on the processing

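For T cells as the mean over substrates, 9 members passed. The count was 26 with the replicate block, 25 by edgeR with the block, 17 with quantile scaling and the block, 4 without experiment 4 and with the block, 1 with scaling to epithelial genes, 13 (12 of them higher and 1 lower) with that scaling and the block, and 0 without experiment 4. It was 6 to 8 by edgeR, with quantile scaling, with no filter and with a pseudocount of 0.1. On single substrates, where 0 passed, edgeR with the block called 1 on uncoated plastic, 1 on collagen IV and 2 on vitronectin.

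Between substrates 0 passed without the block. With the replicate block, and likewise with quantile scaling and the block, 1 member passed for collagen I against collagen IV, 1 against fibronectin and 1 in each test over all substrates (4T1 alone and co-culture). By edgeR with the block these counts were 2, 1, 1 and 1. Without experiment 4 and with the block, 1 passed for collagen I against uncoated plastic in each arm, 3 for collagen I against collagen IV, 2 against fibronectin, 2 against vitronectin, 1 for collagen IV against vitronectin, and 2 and 1 in the tests over all substrates. With epithelial scaling and the block, 1 passed for collagen I against uncoated plastic, 9 against fibronectin, and 3 and 2 over all substrates. Where no share of all genes is given above for a comparison and setting, its count describes the dependence on processing only. Such a count is no result about the members. In 4T1 alone fitted by itself with the block, 4 passed for collagen I, 1 for collagen IV and 1 for fibronectin against uncoated plastic. Between coats it called 4 for collagen I against collagen IV, 5 against fibronectin, 3 against vitronectin, 4 for collagen IV and 4 for fibronectin against vitronectin, and 7 over all. In limma with all libraries and no rescaling, the pairing by experiment changed no other count of members by over 1.5 times.

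The median T cell difference of the members was 0.08 with epithelial scaling and 0.072 with the block added, opposite in sign to the -0.11 of all libraries. On collagen I against uncoated plastic the median was 0.178 and 0.142 on those scales, 0.0435 by edgeR with the block and 0.0294 without experiment 4. On collagen IV it was 0.121 and 0.0958 on the epithelial scales, and on vitronectin 0.0257, of the opposite sign. Single T cell differences turned positive on the epithelial scale, with the value that includes the block second: Actb 0.0802 and 0.0701, Actn1 0.121 and 0.111, Actn4 0.0424 and 0.0497, Pxn 0.066 and 0.0578, Ptk2 0.0824 and 0.0864, Src 0.0212 and 0.0074, Parva 0.0809 and 0.0764, Fermt1 0.0521 and 0.0492, Tns3 0.0489 and 0.0462, Vasp 0.125 and 0.111, Cfl1 0.0514 and 0.0485, Pfn1 0.0479 and 0.045, Tpm4 0.092 and 0.0955, Cnn2 0.106 and 0.0917, Tagln2 0.0677 and 0.0611, Rhoa 0.127 and 0.117. Zyx was 0.0142 without the block only. Cfl1 was 0.0013 and 0.0017 on uncoated plastic and 0.0963 in both on collagen IV.

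With 1 library left out at a time, the T cell count was 2 to 18 and the median -0.133 to -0.0925. The medians against uncoated plastic were 0.0034 to 0.0652 on collagen I, -0.0156 to 0.0553 on collagen IV, -0.0525 to 0.0149 on fibronectin and -0.0716 to 0.0248 on vitronectin. Collagen IV turned negative without experiment 5 on uncoated plastic (-0.0122) or experiments 2 (-0.015) or 3 (-0.0156) on collagen IV, and fibronectin (0.0149) and vitronectin (0.0248) turned positive without their libraries of experiment 5. The causes were not tested. Myl9 and Tagln lie too near the floor of 3 reads for a test.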
